A study of Mus musculus with 6 samples.

Results

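Expression of 41 genes of DNA repair and the DNA damage checkpoint was examined by RNA-seq in mouse leukaemia cells. The genes were chosen by symbol, from known roles in repair, among the 23608 genes of the count table. The rule used no measured value, but the genes were chosen with earlier results of these data known. All 41 were in the table, and all 41 were among the 11614 genes that passed the filter on low counts. The cells were AE9a leukaemia cells. AE9a is a truncated AML1-ETO fusion protein, delivered with GFP by a retrovirus into fetal liver cells of Usp18+/f mice, which have 1 of their Usp18 alleles floxed and a Cre that tamoxifen activates. Both groups carried the same floxed copy and the same Cre. Recipient mice received these cells after irradiation, and once they were sick they were injected with oil in the control group (Usp18+/f) or with tamoxifen to deplete Usp18 heterozygously. On day 3 after injections began, splenocytes were sorted for GFP, c-Kit and absence of lineage markers, with 3 mice in each group and 1 library per mouse. Tamoxifen exposure, Cre activity and loss of a Usp18 copy came together in this design and cannot be told apart.

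DNA repair is organised in pathways that each remove a kind of lesion. Breaks through both strands are sensed by the MRE11-RAD50-NBN complex and the kinase ATM, and are rejoined by homologous recombination, which copies the sister chromatid during S and G2 phase, or by non-homologous end joining, which ligates the ends directly. Stalled replication forks signal through ATR and CHK1, and crosslinks between the strands are unhooked with the help of the Fanconi anaemia proteins. Mismatch, base excision and nucleotide excision repair correct replication errors, small base lesions and bulky adducts. Many genes of recombination and replication are expressed mostly in cycling cells, under E2F transcription factors, whereas several excision repair genes are expressed more evenly. Leukaemia cells divide quickly and lean on the replication stress checkpoint.

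The libraries held between 17118964 and 20741399 counts each. Levels are in CPM, reads of a gene scaled to library size, for which the TMM-adjusted total of the tested genes was taken. Differences are log2 fold changes of the group labelled tamoxifen over the group labelled oil. Where 3 values are listed for a group, they stand in the order oil 1, 3 and 4 or tamoxifen 1, 2 and 4. A call means an adjusted p-value under 0.05 in the edgeR quasi-likelihood F test over all 11614 genes. The targeted gene Usp18 was checked first. It held 9.12, 11.0 and 11.2 CPM in the oil libraries against 15.1, 28.0 and 19.4 CPM in those labelled tamoxifen. All the libraries labelled tamoxifen were above those labelled oil, which goes against a label of Usp18 depletion at the level of whole-gene counts, with a log2 fold change of 0.998 (SE 0.229, edgeR adjusted p = 0.0739, DESeq2 adjusted p = 0.00199). The counts do not separate the floxed exons from the rest of the gene. Directions below therefore rest on the labels of the libraries. Tamoxifen 4 stood apart from the other libraries of its group. Across all tested genes the correlation of log2 CPM of tamoxifen 4 was 0.982 to 0.985 with the oil libraries, against 0.973 with tamoxifen 1 and 0.970 with tamoxifen 2. Results are given with and without it. Because it was singled out from these same values, calls without it depend on that choice and rest on tamoxifen 1 and tamoxifen 2 alone.

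The sorted population was checked against markers. Kit was present at 439 to 781 CPM and Gata2 at 457 to 652 CPM in all libraries. Myb was at 378 to 439 CPM and Spi1 at 68.2 to 97.5 CPM. The granulocyte-monocyte progenitor markers Mpo and Cebpa were near 0, at no more than 0.236 and 0.11 CPM, where 3 counts make 0.145 to 0.177 CPM. Mast cell genes differed in level. Hdc was at 1058 to 2059 CPM and Ms4a2 at 830 to 931 CPM. In the oil libraries Cma1 was at 241 to 318 CPM, Cpa3 at 113 to 156 CPM and Fcer1a at 68.2 to 98.0 CPM. Tpsb2 and Mcpt8 did not exceed 0.309 and 0.90 CPM in oil. Erythroid genes were present, with Klf1 at 285 to 371 CPM.

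No repair gene passed the test in either direction in the edgeR fit of all 6 libraries, although nearly all of them had a lower mean in the group labelled tamoxifen. The log2 fold change was negative for 39 of the 41 genes, while 50% of all tested genes were negative. At an unadjusted p under 0.05, 10 genes (24.4%) were lower and 0 were higher, against 7.99% lower and 12.6% higher over all tested genes. Adjusted calls were rare in this fit, at 0.267% of all tested genes lower and 1.75% higher. The DESeq2 Wald test called 1 gene, Wrn, lower, where it called 1.99% of all genes lower and 6.14% higher, and limma-voom called 0. The median log2 fold change of the 41 genes was -0.23, against 0.00 over all tested genes. The largest values were -0.59 for Pole, the catalytic subunit of leading-strand DNA polymerase epsilon, and 0.35 for Xpa, a damage verification factor of nucleotide excision repair. As these are bulk samples, fewer cells that express a gene and less RNA of it per cell cannot be told apart.

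Library by library, the difference lay in tamoxifen 1 and tamoxifen 2. Of the 41 genes, 35 (85.4%) in tamoxifen 1 and 38 (92.7%) in tamoxifen 2 were below the lowest oil library, where 39.3% and 39.2% of all tested genes were. In tamoxifen 4 only 9 genes (22.0%) were below the oil libraries, 25 lay within their range and 7 lay above it, and 30.4% of all tested genes were below. Tamoxifen 1 and 2 were both below the oil libraries for 33 genes (80.5%), against 30.6% of all tested genes, and for 26 genes (63.4%) this held while tamoxifen 4 was not below, against 18.9%. All 3 libraries labelled tamoxifen were below all oil libraries for 7 genes (17.1%), namely Atm, Chek2, Atr, Rad17, Palb2, Wrn and Prkdc, against 11.8% of all tested genes, and 0 genes had all 3 above, against 13.3%. The median shift of the 41 genes from the oil mean, on the log2 CPM scale, was -0.37 in tamoxifen 1, -0.35 in tamoxifen 2 and 0.01 in tamoxifen 4. When tamoxifen 4 was left out, 25 of the 41 genes (61.0%) were called lower and 1, Xpa, was called higher, against 17.1% and 19.2% of all genes tested in that fit. Leaving out any other single library gave 0 called repair genes, but those fits called few genes of any kind. Over all genes tested in them, 0 were called lower and 8 to 16 higher. The calls without tamoxifen 4 thus depend on leaving out the library of its group nearest to oil.

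**Figure D1:**
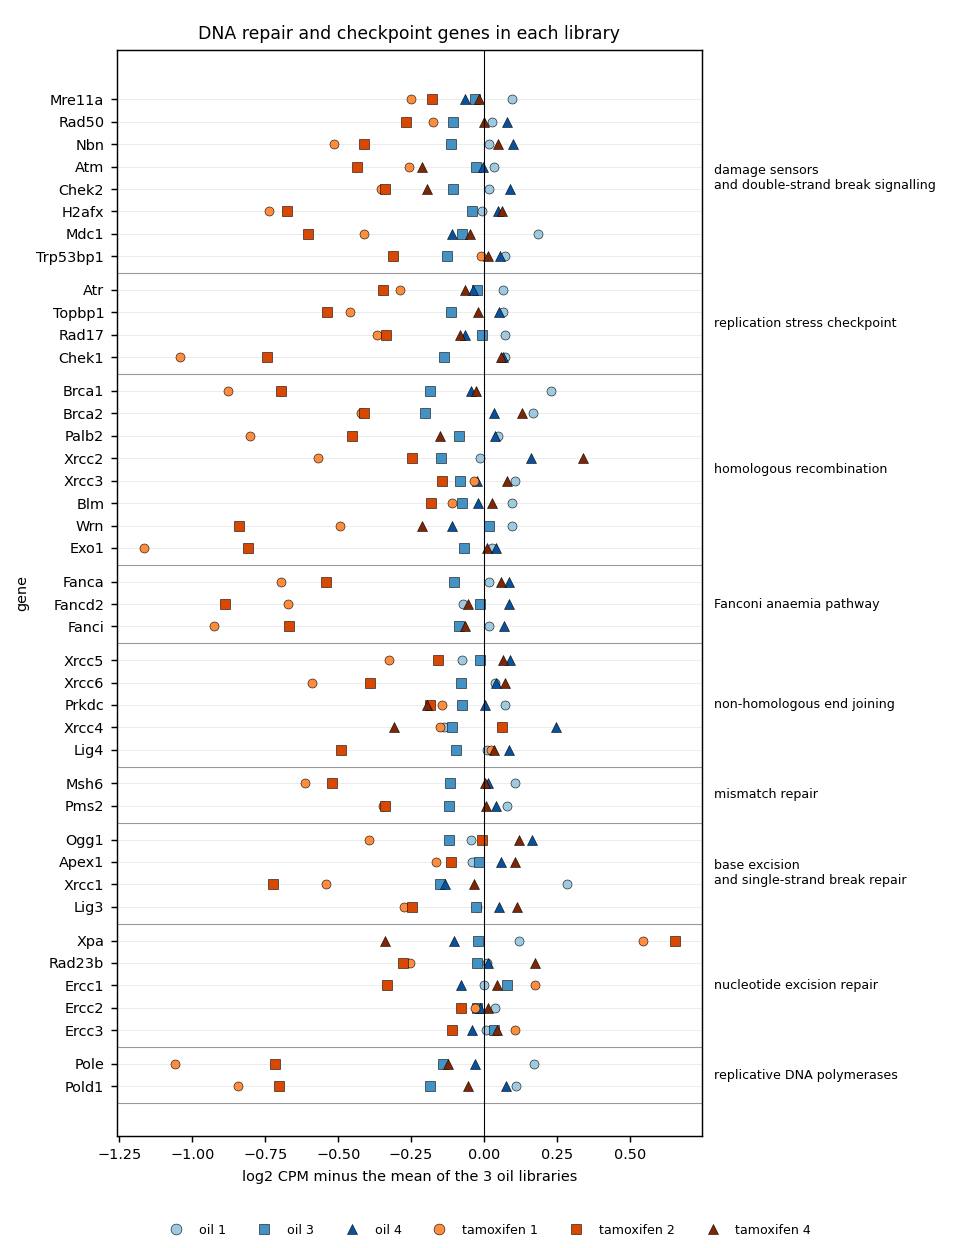
Each symbol is a library and each line a gene, grouped by role, and the horizontal axis is log2 CPM minus the mean of the 3 oil libraries. Tamoxifen 1 and 2 (light and dark orange) lie left of the oil libraries (blue) for most genes, with medians of -0.37 and -0.35, and tamoxifen 4 (brown triangles) lies among the oil libraries with a median of 0.01.

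Since 39 genes shared a direction, the promoters were searched for letters that E2F factors bind. RefSeq (GRCm38.p6) gave 32 promoters for 31 of the 41 genes, and 250 bases before each start were read on both strands. Exo1, Nbn, Wrn, H2afx, Prkdc, Rad50, Fancd2, Pole, Ercc3 and Xrcc2 had no entry. An E2F-like motif (TTTCCCGC, TTTCGCGC, TTTGCCGC or TTTGGCGC) was found in 5 of the 32 promoters (15.6%), against 1.86% of all 32851 promoters. These shares were not matched for base composition. For 24 of the 32 promoters the first 30 bases after the start lay in a transcript of the gene on its strand. The 5 stretches that hold the motif are printed here on the gene's strand, 5′ to 3′. They belong to genes of break signalling, replication stress, recombination and end joining. All 5 genes had a negative log2 fold change, as did 39 of the 41. Capitals mark the motif, on either strand.
Chek2, chr5:110839805-110839864, plus strand: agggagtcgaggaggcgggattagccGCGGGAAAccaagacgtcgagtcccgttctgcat
Mdc1, chr17:35841438-35841497, plus strand: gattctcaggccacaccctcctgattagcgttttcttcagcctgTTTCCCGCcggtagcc
Brca2, chr5:150522427-150522486, plus strand: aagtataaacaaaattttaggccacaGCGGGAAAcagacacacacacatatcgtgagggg
Topbp1, chr9:103305187-103305216, plus strand: ccgctcggttgGCGCGAAAgtcggttcccg
Xrcc6, chr15:82016312-82016341, plus strand: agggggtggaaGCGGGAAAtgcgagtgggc

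The motif began 168 bases before the start in Brca2, 152 in Chek2, 129 in Topbp1, 46 in Xrcc6 and 16 in Mdc1. The stretches of Topbp1 and Xrcc6 overlapped an annotated exon. The log2 fold changes of these 5 genes lay between -0.34 and -0.22 with a median of -0.30. The 26 genes whose promoters lacked these letters lay between -0.51 and 0.35 with a median of -0.14. Fanci, the lowest of the 31 genes with an entry, lacked them, and so did Chek1, Pold1, Brca1, Palb2, Xrcc1, Fanca and Msh6. All of these were more negative than any gene with the letters. The CHR letters TTTGAA, which mark genes of G2 phase and mitosis, were found in 0 of the 32 promoters and in 16.0% of all promoters. CCAAT, which NF-Y binds, was found in 17 of the 32 (53.1%) and in 33.8% of all promoters. Genes with CCAAT had a median log2 fold change of -0.15 and genes without it one of -0.24. These matches describe letters and were not tested for binding.

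Break sensors and signalling genes (8 genes) all had negative log2 fold changes, with a median of -0.29, and none was called. H2afx (chr9:44334694-44336077, plus strand) encodes the histone H2AX, whose phosphorylated form marks breaks, and had the highest level per length of all 41 genes, 132 CPM per kb of exon. It held 207, 202 and 215 CPM in the oil libraries against 125, 130 and 217 CPM in those labelled tamoxifen. Tamoxifen 1 and 2 lay far below the oil libraries and tamoxifen 4 lay just above them, so the groups overlapped. This gave a log2 fold change of -0.40 (SE 0.20, adjusted p = 0.291) with all libraries and -0.71 (SE 0.07, adjusted p = 0.000114) without tamoxifen 4, the lowest adjusted p of the 41 genes in that fit.

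Atm (chr9:53439149-53536740, minus strand), the kinase that starts the response to breaks, had the smallest adjusted p-value of the 41 genes with all libraries. It held 123, 118 and 120.2 CPM in the oil libraries against 101, 89.2 and 104 CPM in those labelled tamoxifen. The groups did not overlap, and tamoxifen 4 was also below every oil library. The fitted log2 fold change was -0.30 (SE 0.09, adjusted p = 0.133). Chek2 (chr5:110839979-110874145, plus strand), the kinase downstream of ATM, held 73.8, 67.9 and 77.7 CPM in the oil libraries against 57.1, 57.6 and 63.8 CPM in those labelled tamoxifen. Its groups did not overlap either, with a log2 fold change of -0.30 (SE 0.09, adjusted p = 0.147).

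Of the MRE11 complex, Nbn had a log2 fold change of -0.27, Mre11a of -0.15 and Rad50 of -0.15. Mdc1, the scaffold that binds phosphorylated H2AX, was at -0.34, and Trp53bp1, which encodes 53BP1 and steers breaks towards end joining, was at -0.10. Trp53bp1 was at 108 CPM in tamoxifen 1, within the oil range of 100.03 to 115 CPM, and was the only one of the 8 that was not below the oil libraries there. Without tamoxifen 4, Nbn, Atm, Chek2, H2afx and Mdc1 were called lower and Mre11a, Rad50 and Trp53bp1 were not.

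The replication stress checkpoint (4 genes) was lower in tamoxifen 1 and 2 for each of its members. Atr (chr9:95857597-95951781, plus strand), its apical kinase, held 137, 129 and 127 CPM in the oil libraries against 107, 103 and 125 CPM in those labelled tamoxifen. Rad17 (chr13:100617164-100651051, minus strand) loads the 9-1-1 checkpoint clamp, and held 55.8, 52.8 and 50.7 CPM in the oil libraries against 41.2, 42.0 and 50.1 CPM in those labelled tamoxifen. Both genes had groups that did not overlap, but tamoxifen 4 lay only just below the lowest oil library. Their log2 fold changes were -0.23 (SE 0.10, adjusted p = 0.239) and -0.26 (SE 0.11, adjusted p = 0.231).

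Chek1 (chr9:36708482-36727065, minus strand), the effector kinase of ATR, showed the widest split, on the log2 scale, between libraries labelled tamoxifen in this class. It held 44.6, 38.5 and 44.3 CPM in the oil libraries against 20.5, 25.3 and 44.1 CPM in those labelled tamoxifen. Tamoxifen 4 was within the oil range and the other 2 libraries were well below it. The edgeR log2 fold change was -0.50 (SE 0.26, adjusted p = 0.301), and -0.89 (SE 0.12, adjusted p = 0.000625) without tamoxifen 4. Topbp1, the activator of ATR, held 302 to 342 CPM in the oil libraries against 238, 225 and 322 CPM in those labelled tamoxifen. All 4 genes were called lower without tamoxifen 4.

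Homologous recombination (8 genes) had a median log2 fold change of -0.33, and all 8 values were negative. Exo1 (chr1:175880581-175913489, plus strand), a nuclease that resects break ends and also acts in mismatch repair, held 70.8, 66.1 and 71.4 CPM in the oil libraries against 30.8, 39.6 and 69.9 CPM in those labelled tamoxifen. Tamoxifen 4 lay within the oil range. The log2 fold change was -0.57 (SE 0.26, adjusted p = 0.263), and -0.98 (SE 0.11, adjusted p = 0.000214) without tamoxifen 4, the largest of any of the 41 genes in that fit.

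Wrn (chr8:33234384-33385527, minus strand), a RecQ helicase expressed at 50.7 CPM per kb of exon, held 480.2, 455 and 416 CPM in the oil libraries against 319, 251 and 388 CPM in those labelled tamoxifen. The groups did not overlap, with tamoxifen 2 lowest and tamoxifen 4 nearest to oil. Its log2 fold change was -0.50 (SE 0.15, edgeR adjusted p = 0.142). DESeq2 gave an adjusted p of 0.0398 at a log2 fold change of -0.49.

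Palb2 (chr7:122107262-122132985, minus strand), which links BRCA1 to BRCA2, held 20.3, 18.5 and 20.1 CPM in the oil libraries against 11.2, 14.3 and 17.6 CPM in those labelled tamoxifen. These groups did not overlap, with a log2 fold change of -0.45 (SE 0.18, adjusted p = 0.215). Brca1, needed for end resection, was at -0.50 and Brca2, a mediator of strand exchange, at -0.22. The RecQ helicase Blm was at -0.09, and the recombination factors Xrcc2 and Xrcc3 were at -0.12 and -0.03. Xrcc2 was the only gene of the 8 above every oil library in tamoxifen 4, at 18.8 CPM against 13.4 to 16.7 CPM, while tamoxifen 1 and 2 held 9.99 and 12.5 CPM. Without tamoxifen 4, Brca1, Brca2, Palb2, Wrn and Exo1 were called lower and Xrcc2, Xrcc3 and Blm were not.

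The 3 Fanconi anaemia genes shared a pattern across the libraries. Fanci (chr7:79391929-79450264, plus strand) encodes a subunit of the ID2 complex that is ubiquitinated at crosslinks, and held 68.7, 64.0 and 71.2 CPM in the oil libraries against 35.7, 42.6 and 64.9 CPM in those labelled tamoxifen. This gave a log2 fold change of -0.51 (SE 0.20, adjusted p = 0.217). Its partner Fancd2 was at -0.50 and Fanca, of the core ligase complex, at -0.36. Tamoxifen 4 lay within the oil range for all 3 genes and tamoxifen 1 and 2 lay below it, and all 3 were called lower without tamoxifen 4.

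**Figure D2:**
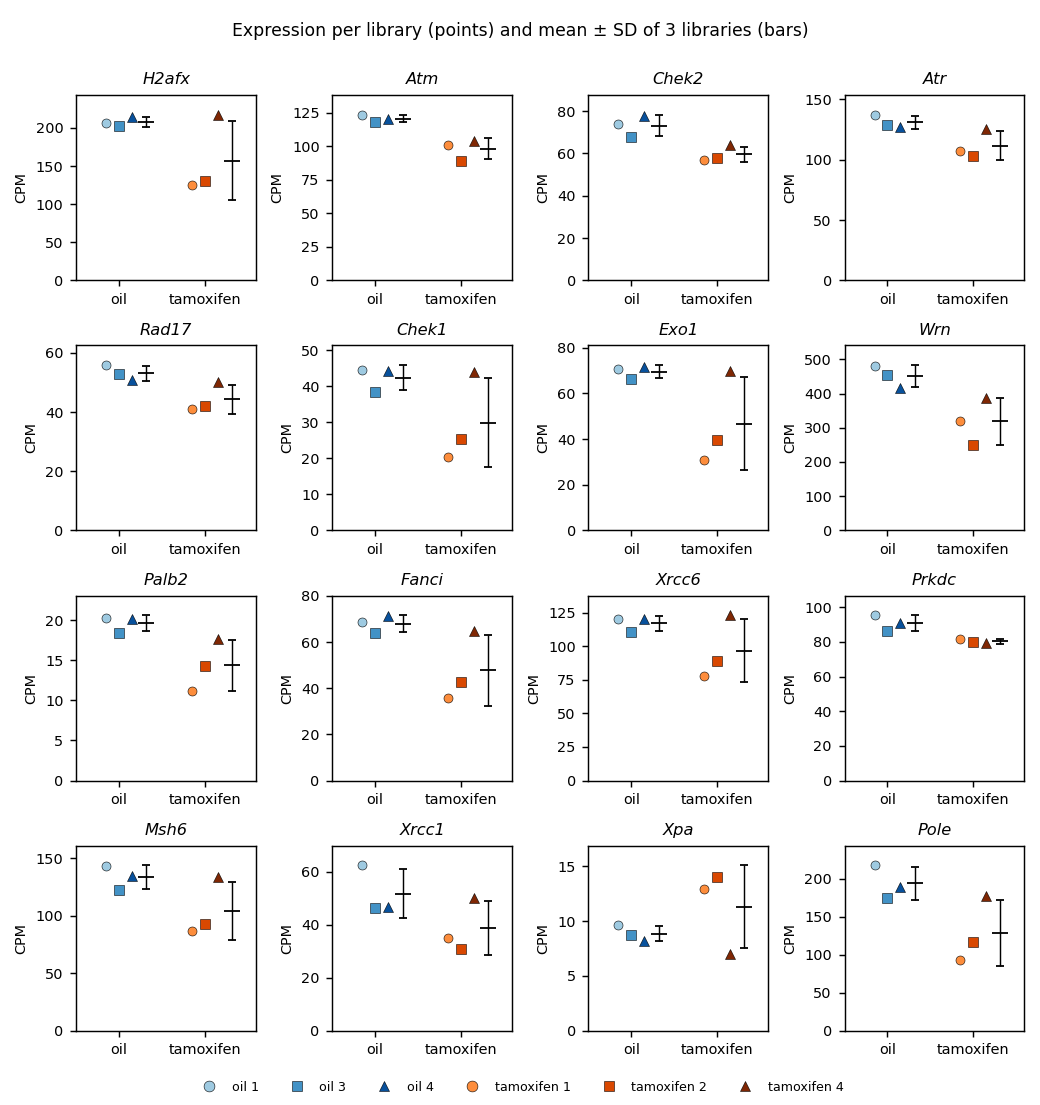
CPM of 16 repair genes, with oil on the left and tamoxifen on the right of each panel, points for libraries and bars for the mean ± SD of 3 libraries, on axes that start at 0. For H2afx, Chek1, Exo1, Fanci, Xrcc6 and Msh6 tamoxifen 4 sits level with oil and the other 2 libraries sit lower. Atm, Chek2, Atr, Rad17, Palb2, Wrn and Prkdc are below oil in all 3, and Xpa is above oil in tamoxifen 1 and 2 only.

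Non-homologous end joining (5 genes) showed smaller differences, with log2 fold changes between -0.28 and -0.13. Xrcc6 (chr15:81987835-82040085, plus strand) encodes the end-binding protein Ku70, and held 120.1, 111 and 120.3 CPM in the oil libraries against 77.7, 89.2 and 123 CPM in those labelled tamoxifen. Tamoxifen 4 was above every oil library. The fitted log2 fold change was -0.28 (SE 0.16, adjusted p = 0.348). Xrcc5, which encodes the Ku80 partner, was at -0.13.

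Prkdc (chr16:15637866-15842235, plus strand), the kinase DNA-PKcs that Ku recruits, held 95.2, 86.0 and 90.9 CPM in the oil libraries against 81.9, 79.7 and 79.1 CPM in those labelled tamoxifen. It was the only 1 of the 7 genes without overlap for which tamoxifen 4 was the lowest library. The edgeR log2 fold change was -0.18 (SE 0.08, adjusted p = 0.263) and stayed near that value without tamoxifen 4, at -0.16 (adjusted p = 0.123). The ligation factors Lig4 and Xrcc4 had the lowest levels per length of the 41 genes, 1.75 and 1.01 CPM per kb, and log2 fold changes of -0.13 (SE 0.19) and -0.14 (SE 0.23). Xrcc6 was the only gene of the 5 called lower without tamoxifen 4.

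Of the mismatch repair genes, Msh6 (chr17:87975062-87990892, plus strand), a subunit of the complex that recognises mismatches, held 143, 123 and 134 CPM in the oil libraries against 86.8, 92.7 and 133 CPM in those labelled tamoxifen. Tamoxifen 4 lay within the oil range. The log2 fold change was -0.35 (SE 0.16, adjusted p = 0.263). Pms2, a subunit of the MutL endonuclease, was at -0.22 (SE 0.13, adjusted p = 0.355).

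Base excision and strand break repair (4 genes) had a median log2 fold change of -0.10. Xrcc1 (chr7:24546289-24573440, plus strand), the scaffold of single-strand break repair, held 62.3, 46.1 and 46.6 CPM in the oil libraries against 35.1, 30.9 and 50 CPM in those labelled tamoxifen. The oil libraries themselves were spread, with oil 1 the highest. Its log2 fold change was -0.42 (SE 0.20, adjusted p = 0.274). Lig3, the ligase partner of XRCC1, was at -0.13, the glycosylase gene Ogg1 at -0.08 and the endonuclease gene Apex1 at -0.05. Lig3 and Apex1 were above every oil library in tamoxifen 4 and below every oil library in tamoxifen 1 and 2. Xrcc1 and Lig3 were called lower without tamoxifen 4.

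Nucleotide excision repair (5 genes) was the class nearest to 0, with a median log2 fold change of -0.02. Xpa (chr4:46155347-46196311, minus strand) held 9.62, 8.72 and 8.23 CPM in the oil libraries against 13.0, 14.0 and 6.96 CPM in those labelled tamoxifen. Tamoxifen 1 and 2 were above every oil library and tamoxifen 4 was below them. This gave a log2 fold change of 0.35 (SE 0.26, adjusted p = 0.446), and 0.61 (SE 0.15, adjusted p = 0.0124) without tamoxifen 4. The TFIIH helicase genes Ercc2 and Ercc3 were at -0.03 and 0.02, and the incision nuclease gene Ercc1 was at -0.02. Rad23b, a partner of the lesion sensor XPC, was at -0.10 and was called lower without tamoxifen 4, at -0.27 (SE 0.07, adjusted p = 0.0116).

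The replicative polymerases had the lowest class median, -0.54 over 2 genes. Pole (chr5:110286306-110337474, plus strand) held 217, 175 and 189 CPM in the oil libraries against 92.4, 117 and 177 CPM in those labelled tamoxifen. Tamoxifen 4 was just above oil 3, so the groups overlapped. The fitted log2 fold change was -0.59 (SE 0.22, adjusted p = 0.203), and -0.88 (SE 0.12, adjusted p = 0.000539) without tamoxifen 4. Pold1, the catalytic subunit of lagging-strand polymerase delta, was at -0.50 (SE 0.20, adjusted p = 0.223) and at -0.78 without tamoxifen 4.

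**Figure D3:**
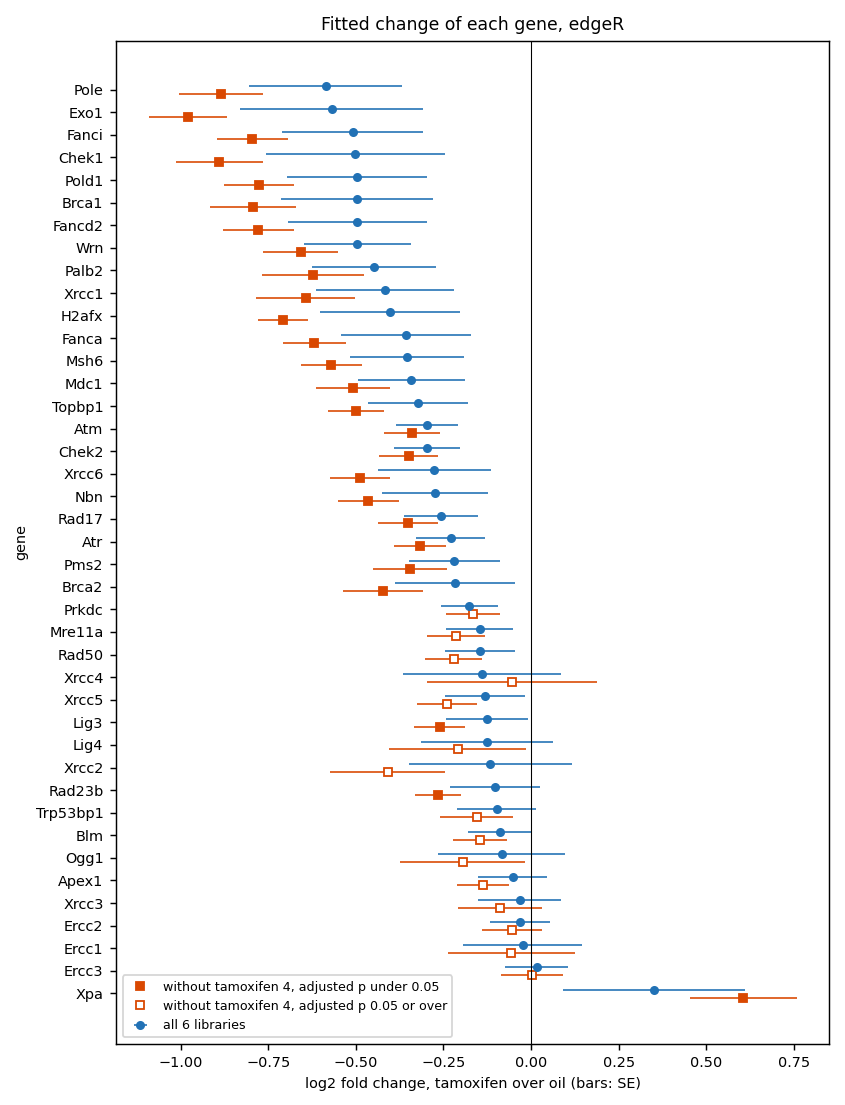
Log2 fold change of tamoxifen over oil for each of the 41 genes in the edgeR fit, ordered by the value with all 6 libraries (blue circles), with bars for the SE and squares for the fit without tamoxifen 4, filled where the adjusted p was under 0.05. With all libraries the values run from -0.59 (Pole) to 0.35 (Xpa) and 0 were called, and without tamoxifen 4 the square is filled for 25 genes below 0 and for Xpa.

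The other genes of these pathways were counted from lists that exclude the 41. Of 122 such genes, 117 were tested. None was called in the edgeR fit. At an unadjusted p under 0.05, 8 were higher and 19 (16.2%) lower, against 12.6% and 7.99% of all tested genes. The log2 fold change was negative for 89 of 117 (76.1%), against 50% of all tested genes, with a median of -0.17. DESeq2 called 5 higher and 2 (1.71%) lower, against 6.14% and 1.99% of all tested genes. Their median shifts in tamoxifen 1, 2 and 4 were -0.27, -0.25 and -0.01 on the log2 scale. Without tamoxifen 4, 12 (10.3%) were called higher and 51 (43.6%) lower, against 19.2% and 17.1% of all genes tested in that fit. Recombination, Fanconi anaemia and checkpoint genes were negative for 23 of 26, 12 of 13 and 19 of 20 genes, whereas 11 of 18 nucleotide excision genes were positive.

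The extreme genes of each list are given for their size and did not pass the test. In recombination these were Rmi2, of the BLM dissolvasome, at -0.82 and Rad51d at 0.20. Among Fanconi anaemia genes they were the ubiquitin-conjugating enzyme gene Ube2t at -0.50 and Fance at 0.06, and among checkpoint genes Clspn, which encodes the CHK1 adaptor claspin, at -0.64 and Rad9b at 0.65. End joining held Nhej1, which encodes XLF, at -0.49 and Paxx at 0.78, and mismatch repair, with all 5 genes negative, held Pms1 at -0.37. The glycosylase genes Mbd4 at -0.46 and Neil2 at 1.19 bounded base excision, Neil2 at no more than 1.76 CPM in any library. Uvssa at 0.64 was the highest nucleotide excision gene, and the translesion polymerases Polh at -0.39 and Polk at 0.62 bounded the last list. Polk was above oil in all 3 libraries labelled tamoxifen, at 26.8, 28.0 and 23.0 CPM against 15.2 to 19.2 CPM (adjusted p = 0.0696).

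Genes that p53 induces after damage mostly had higher means in the group labelled tamoxifen. Of 15, 12 had a positive log2 fold change, against 50% of all tested genes, and the median was 0.39. By edgeR 3 were called higher and 0 lower, where 1.75% and 0.267% of all tested genes were called. Cdkn1a, which encodes the cell cycle inhibitor p21, rose from 18.2, 22.3 and 15.4 CPM in the oil libraries to 95.7, 118 and 95.4 CPM in those labelled tamoxifen, a log2 fold change of 2.47 (SE 0.16, adjusted p = 0.00286). Zmat3, an RNA-binding p53 target, rose from 26.2, 30.1 and 30.3 CPM to 93.7, 83.8 and 72.6 CPM, a log2 fold change of 1.53 (SE 0.12, adjusted p = 0.00312). For both genes tamoxifen 4 lay with the other libraries of its group, well above oil, unlike its place for most of the 41 repair genes. Eda2r, a death receptor gene, rose by 1.81 on the log2 scale (SE 0.35, adjusted p = 0.0454) from 0.563 to 1.03 CPM in oil to 2.32 to 3.66 CPM in tamoxifen, and it lost the call with limma-voom (adjusted p = 0.0745), with a replicate block (adjusted p = 0.168) and when any single library other than tamoxifen 4 was left out (adjusted p of 0.128 to 0.217). Sesn1 was the lowest of the list, at -0.29 (SE 0.11).

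Markers of S phase and mitosis followed the same order of libraries as the repair genes. All 19 had a negative log2 fold change, against 50% of all tested genes, with a median of -0.46. At an unadjusted p under 0.05, 7 (36.8%) were lower, against 7.99% of all tested genes, and 0 were called by edgeR. Their summed level was 7047 to 8093 CPM in oil, 4449 CPM in tamoxifen 1, 4347 CPM in tamoxifen 2 and 7405 CPM in tamoxifen 4, and their median shifts in the tamoxifen libraries were -0.77, -0.73 and 0.00. Cdc6, a licensing factor, was lowest at -0.69. Without tamoxifen 4, 18 of 19 (94.7%) were called lower, against 17.1% of all genes tested in that fit. The part of cycling in the values of the repair genes was not tested.

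**Figure D4:**
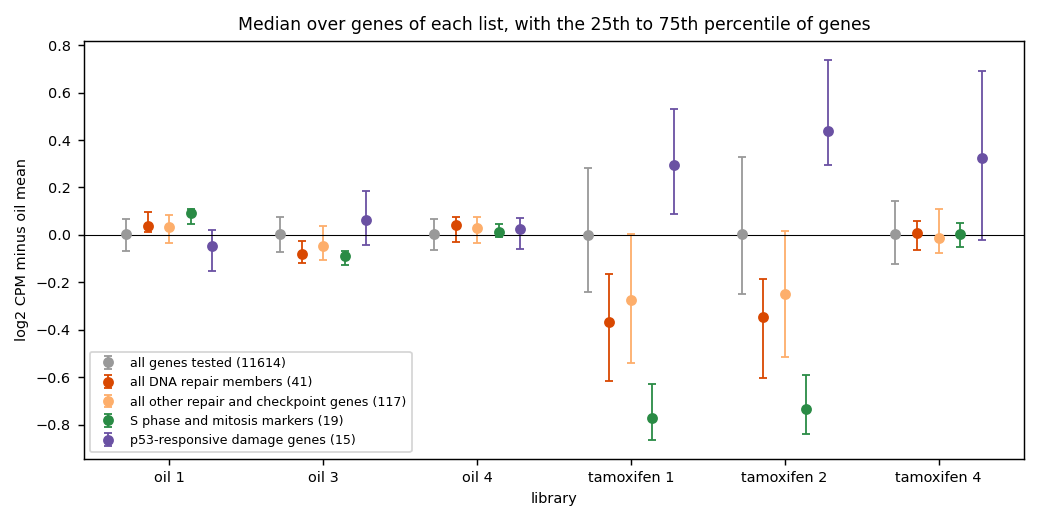
Median over genes of log2 CPM minus the oil mean in each library, with bars from the 25th to the 75th percentile of genes, for all tested genes, the 41 repair genes, 117 other repair genes, 19 S phase and mitosis markers and 15 p53-responsive genes. In tamoxifen 1 and 2 the repair genes (-0.37 and -0.35) lie between all genes and the S phase markers (-0.77 and -0.73), and in tamoxifen 4 these lists lie near 0 while the p53-responsive genes are at 0.32.

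Markers of other cell types also differed between libraries. The summed level of 9 erythroid markers was 3906 to 6178 CPM in oil and 7182, 7517 and 3126 CPM in tamoxifen 1, 2 and 4, with 5 of 9 positive. The sum of 8 mast cell markers was 2892 to 3087 CPM in oil and 4830, 7442 and 3631 CPM in tamoxifen, with 7 of 8 positive. That of 10 macrophage markers was 4.94 to 8.78 CPM in oil and 18.0, 23.2 and 9.503 CPM in tamoxifen, with 5 of 7 tested genes positive. Hmox1 was the largest part of this sum in tamoxifen 1, 2 and 4, at 8.2, 9.6 and 2.8 CPM. The other members did not move together. Vcam1 and Cd68 were above every oil library in all 3 libraries labelled tamoxifen, with log2 fold changes of 1.86 and 0.97. They held at most 4.25 and 3.18 CPM in any library, and neither was called. C1qb and C1qc had log2 fold changes of -0.17 and -0.12, and C1qa and Csf1r of 1.2 (SE 0.66) and 0.34 (SE 0.77). Adgre1 and Cd163, which were not tested, did not exceed 0.59 and 0.65 CPM in any library. Neutrophil and B cell markers did not exceed 0.617 and 0.823 CPM in any library, and 7 of 10 T and NK cell markers were at 0 in all of them, Cd3e, Cd3g and Ncr1 included. The part of these cells in the values of the repair genes was not tested.

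Exons of 21 of the 41 genes overlapped a gene on the opposite strand in GENCODE M21, and the overlap took over 10% of the exon length for Apex1, Ercc2, Lig3, Fanci, Trp53bp1, Ogg1, Fanca and H2afx. As the strand setting of the counts was not given in the sources used here, reads of the partner genes cannot be told apart there, and the values of these 8 genes are uncertain. For Apex1 the overlap with Pip4p1 covered 61.7% of its exon length.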

How the data were processed

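RNA of sorted cells was extracted with Trizol and sequenced on an Illumina NovaSeq as paired-end reads by a sequencing provider, while the labels name a DNA Flex kit. Estimated counts for each symbol were deposited by the authors, made with STAR and DESeq2 on mm10 per the labels, not scaled between libraries. The counting program, strand setting and annotation are not given in the sources used here. Values came in steps of 0.5, and 25.9% to 27.3% per library were not whole, so counts were rounded. For 26 rows the symbol was a date; none of these was named. All per-sample columns were used. Titles number the libraries oil 1, 2 and 4 and tam 1, 3 and 4, while the columns used here number them oil 1, 3 and 4 and tamoxifen 1, 2 and 4. Replicates differed beyond sampling noise (chi-square per degree of freedom at least 6.41).

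The fit used edgeR 4.0.16 under R 4.3.3 (filterByExpr by group, TMM, quasi-likelihood F test, no block, Benjamini-Hochberg over 11614 genes), and the SE was derived from the F statistic. Library shifts used log2 CPM with a prior count of 2. A count of 3 was 0.145 to 0.177 CPM; such limits cover counting error only. Alternatives were DESeq2 1.42.0, limma-voom (limma 3.58.1), other size factors, no filter, a mean of at least 50 counts, a replicate block and leaving out each library. The scripts were tested on simulated data, on which DESeq2 ran above its nominal error rate. The 41 genes, the lists and the tests were chosen with earlier results of these data known. All 41 genes are named, with values in every library for genes that were called, whose groups did not overlap, or that had the largest absolute log2 fold change of their class. Of other lists, called genes or else the largest rise and fall are named. Gata2, Myb, Spi1, Hdc, Ms4a2, Mcpt8, Cma1, Cpa3, Klf1, C1qb, C1qc, Vcam1, Cd68 and the markers at 0 were named after their values were seen. Coordinates and exon lengths are from GENCODE M21 (GRCm38). The paired ATAC-seq and an earlier batch were not analysed here. Some genes that this rule would name are not reported here.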

Additional observations from a re-analysis of the deposited data

How the results depend on the processing

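Precision was limited by 3 libraries per group and by the distance of tamoxifen 4 from the other libraries of its group. Over all genes, the edgeR calls (203 higher, 31 lower) became 713 and 231 with DESeq2, 48 and 6 with limma-voom, 372 and 61 without the low-count filter and 120 and 17 at a mean of at least 50 counts, and ranged from 8 to 2278 higher and from 0 to 2024 lower when single libraries were left out, the highest of each without tamoxifen 4. Called repair genes ranged from 0 to 25 lower and from 0 to 1 higher on leaving out libraries and were 1 lower with DESeq2, and stayed at 0 in the remaining fits. Of the 117 other repair genes, DESeq2 called 5 higher and 2 lower, and leaving out libraries gave 0 to 12 higher and 0 to 51 lower. Repair genes lower at an unadjusted p under 0.05 numbered 16 with limma-voom, 18 without the filter, 6 with the replicate block and 2 to 29 on leaving out libraries. The number over all tested genes, in either direction, moved with the same settings. It was 2345 of 11614 with limma-voom, 2858 of 15356 without the filter and 1203 of 11614 with the block. On leaving out libraries it ran from 1373 to 5501, the highest without tamoxifen 4. The number of negative repair genes stayed between 35 and 39 and their median between -0.35 and -0.19. Of 533 values of single repair genes under the alternatives, 494 kept direction and side of the threshold, 27 passed it and 12 changed sign, in 7 genes. Leaving out single libraries moved Trp53bp1 between -0.16 and 0.0011, Xrcc2 between -0.41 and 0.0694, Xrcc3 between -0.0893 and 0.0235, Lig4 between -0.21 and 0.0298, Ogg1 between -0.19 and 0.0533, Ercc1 between -0.13 and 0.11 and Ercc3 between -0.0313 and 0.0760, and Ercc1 was 0.15 with the block. The causes were not tested. The block used the library numbers, of which only 1 and 4 occur in both groups, and left 1 residual degree of freedom. Libraries of the same number correlated at -0.13 and 0.06 in their deviations. With 3 libraries per group these values cannot settle whether the numbers mark pairs. The block gave 215 higher and 26 lower calls and 0 called repair genes.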

Other observations

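Single marker genes of other lists were called in the edgeR fit of all libraries. Cd34, a progenitor surface protein, rose from 8.43 to 11.7 CPM in oil to 113, 134 and 41.8 CPM in tamoxifen 1, 2 and 4 (log2 fold change 3.27, adjusted p = 0.0232). Tamoxifen 4 lay nearest to oil for Cd34 but still well above every oil library. The mast cell genes Fcer1a, the alpha chain of the IgE receptor, and Tpsb2, a tryptase, rose by 2.12 and 4.16 on the log2 scale, Tpsb2 to at most 8.92 CPM. Nkg7, a granule membrane gene, rose by 4.03 on that scale to 20.0, 56.4 and 7.62 CPM, while Gzma, Prf1 and Ncr1 were at 0 in all libraries. Hmox1, which encodes the haem-degrading enzyme, rose by 2.53. The summed erythroid markers were highest in tamoxifen 2 and lowest in tamoxifen 4.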
